A study of Mus musculus with 12 samples.

Results

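Control microglia labelled as Tlr4 knockout were compared with wild-type control microglia, array by array, to ask how the genotypes differ when the cells have not been through ischemia. The comparison used 6 of the 12 arrays of the series, 3 from each genotype, as separate samples with no pairing. A gene entered if a probe set carried exactly 1 gene symbol, and the brightest such probe set over the 12 arrays stood for the gene. This gave 19938 genes, of which 15273 had a mean signal above a limit for dim probe sets and were tested.

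The cells were primary mouse microglia in culture, measured on Affymetrix Mouse Gene 1.0 ST arrays with 1 sample per array. Both control groups were kept for 24 h with normal oxygen and glucose and then for a further 24 h under the same normal conditions, which served as the control for reperfusion. The wild-type group (CN) and the TLR4 knockout group (TN) differ in the labels only by genotype. The 6 arrays of the ischemia groups (CH and TH) had 24 h of low oxygen or low glucose first, then the same 24 h of normal conditions. The source name of the CH arrays reads as the control condition, against their titles and the key of the series, and the titles were followed, so each value after ischemia rests on that reading. The labels do not describe how Tlr4 was altered, nor the strain, sex or age of the mice, nor whether a group's 3 arrays trace back to different animals or dishes. The p-values therefore measure only the spread between these arrays, which may be technical, and 3 arrays per group limit the precision. The extraction protocol speaks of myocytes, whereas the other labels name microglia.

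Microglia are the macrophages that live in brain tissue. TLR4 sits on their surface, binds bacterial lipopolysaccharide together with its partners Cd14 and MD-2, and signals along 2 branches. The Myd88 branch activates the transcription factor NF-kB and inflammatory genes, and the Trif branch activates IRF3, which turns on type I interferon and through it a large group of antiviral genes.

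All levels and differences are in log2 signal, so a difference of 1 is a 2-fold change. Differences are knockout-labelled minus wild type, with a standard error (SE) from a linear model over all 12 arrays. A gene is called where the p-value of limma, adjusted over the 15273 genes by the method of Benjamini and Hochberg, is under 0.05.

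The probe set of Tlr4 did not separate the genotypes. The wild-type control arrays read 8.67, 8.90 and 8.72, and the knockout-labelled arrays 8.97, 8.64 and 8.39. The groups overlap, with a difference of -0.10 (SE 0.16, 95% interval -0.45 to 0.26, limma adjusted p = 0.89). No source used here says where these probes lie relative to the altered part of the gene, so the signal does not check the labels. The groups are called wild type and knockout-labelled for that reason.

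Genes shared by microglia and other macrophages were bright. Csf1r, the receptor for the growth factors that keep microglia alive, had a mean of 12.27 over the 12 arrays, above 99.2% of all probe sets, and Tyrobp, the signalling adaptor of Trem2, had a mean of 12.11. The mean of 23 homeostatic microglia genes lay between 8.90 and 9.31 on the wild-type control arrays and between 8.90 and 9.07 on the knockout-labelled ones. Among members more specific to microglia, the means over the 12 arrays were 5.75 for P2ry12, 5.85 for Siglech and 6.51 for Tmem119, and Gpr34, at 4.84, was below the limit for dim probe sets (5.36). Other members were brighter, with Sall1 at 7.43, Cx3cr1 at 8.95, Fcrls at 9.24 and Olfml3 at 9.44. All of these members are named after their values were seen. Of the 23 genes 22 were above the limit. Lyz2 and Mrc1, which mark macrophages more widely, averaged 13.42 and 11.17. They were the 2 brightest of 19 markers of border macrophages and monocytes. Of these 19, 13 were above the limit for dim probe sets, and the median of the 19 means was 5.89. Cd163 (5.01) and Ccr2 (4.83), named after their values were seen, were below it. Of 14 markers of cardiac and skeletal myocytes 12 were above that limit. Their mean lay between 5.99 and 6.06 in wild type and between 6.0 and 6.10 in knockout-labelled arrays, with Actc1 at 7.13 and Mb at 6.63.

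Markers of other cells of the brain were not all at background. Over the 12 arrays Aldoc and Aldh1l1 of astrocytes averaged 8.69 and 8.16, Cnp and Mbp of oligodendrocytes 8.31 and 7.68, Vwf and Flt1 of endothelium 9.70 and 9.55, and Col1a1 and Postn of fibroblasts 7.71 and 7.67. Nefh and Syp of neurons stood at 6.71 and 6.70, and Cd3e and Cd8a of lymphocytes at 6.60 and 6.28. Above the limit for dim probe sets were 10 of 14 astrocyte, 11 of 13 oligodendrocyte, 7 of 13 endothelial, 8 of 15 neuron and 5 of 12 lymphocyte markers. So were 12 of 15 fibroblast and mural markers and 7 of 12 neutrophil markers. Of all 19938 genes 15273 were above it. Markers below it included Pecam1 and Cdh5 of endothelium (5.28 each) and Aqp4 and Gja1 of astrocytes (5.18 and 5.26). These 4 are named after their values were seen. The mean of the astrocyte list lay between 6.15 and 6.39 in wild type and between 6.10 and 6.17 in knockout-labelled control arrays, and that of the oligodendrocyte list between 6.37 and 6.74 and between 6.32 and 6.42. For the endothelial list it lay between 5.99 and 6.10 in wild type and between 6.02 and 6.06 in knockout-labelled arrays. No member of the marker lists of astrocytes, oligodendrocytes, neurons, fibroblasts and mural cells, endothelium, neutrophils, lymphocytes or myocytes was called by limma. At an unadjusted p under 0.05 there were 1 lower astrocyte marker, 1 lower neutrophil marker, 1 higher neuron marker and 1 higher myocyte marker. Over all genes 3.65% were lower and 3.5% higher at that p. The median genotype differences of these lists ran from -0.15 in astrocyte markers to 0.07 in lymphocyte markers. Because each array holds RNA from many cells, fewer cells of a type and less RNA per cell cannot be told apart.

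One control array of each genotype stood apart. Knockout-labelled control array 3 had a median correlation of 0.976 with the other arrays over all probe sets, against 0.982 or more for the other 5 control arrays. Wild-type control array 2 had higher signals of interferon-stimulated, cell division and border macrophage genes than wild-type arrays 1 and 3. Beside the results that moved most, values without these arrays are given.

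Against this background 9 genes of 15273 were called (0.0589%). Knockout-labelled cells were lower in 8 of them (0.0524%): Lox, Aoah, Cfb, Acod1, Tlr2, Tgfbi, Saa3 and Ikbke. They were higher in 1, Tmod1 (0.00655%). At an unadjusted p under 0.05 there were 557 lower genes (3.65%) and 534 higher genes (3.5%). The median difference over all genes was 0.0030, on arrays whose distributions the normalization had made alike.

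Larger differences were mostly on the lower side. A difference of at least 1, which is 2-fold, was seen in 63 genes that were lower in knockout-labelled cells and in 4 that were higher. In 45 of the 63 all knockout-labelled arrays lay below all wild-type arrays. Of the 63 genes, 16 belong to the interferon-stimulated list (39 tested), 7 to the inflammatory list (27 tested) and 4 to the list of matrix enzymes (19 tested). The other lists aside, 32 of the 63 belong to none of the lists (14765 tested). Over all genes the count was 63 of 15273. Wild-type control array 2 was the highest of the wild-type arrays in 39 of the 63 (61.9%), against 37.4% of all genes. Without that array all 63 were still lower, 37 of them by at least 1, and without knockout-labelled array 3 as well 34 of the 63 were lower by at least 1. The higher side grew when arrays were left out. Over all genes 65 were lower and 19 higher by at least 1 without wild-type array 2. It was 59 and 8 without knockout-labelled array 3, and 58 and 28 without both arrays.

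The number of calls depended on single arrays. With limma on the 6 control arrays alone no gene passed, with 708 genes at an unadjusted p under 0.05 and a smallest adjusted p of 0.0591. No gene passed without wild-type control array 3 (smallest adjusted p 0.0785, 683 genes at an unadjusted p under 0.05) or without knockout-labelled control array 3 (0.0741, 685 genes). In limma fits 3 genes passed without knockout-labelled control array 1 and 23 without wild-type control array 2. Of the 9 genes, Saa3 (adjusted p = 0.065) and Ikbke (0.077) did not pass without wild-type array 2. Each of the 9 genes kept its direction in all 17 alternative settings. They were called in between 9 (Saa3, Ikbke) and 14 (Lox) of the 17.

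**Figure D1:**
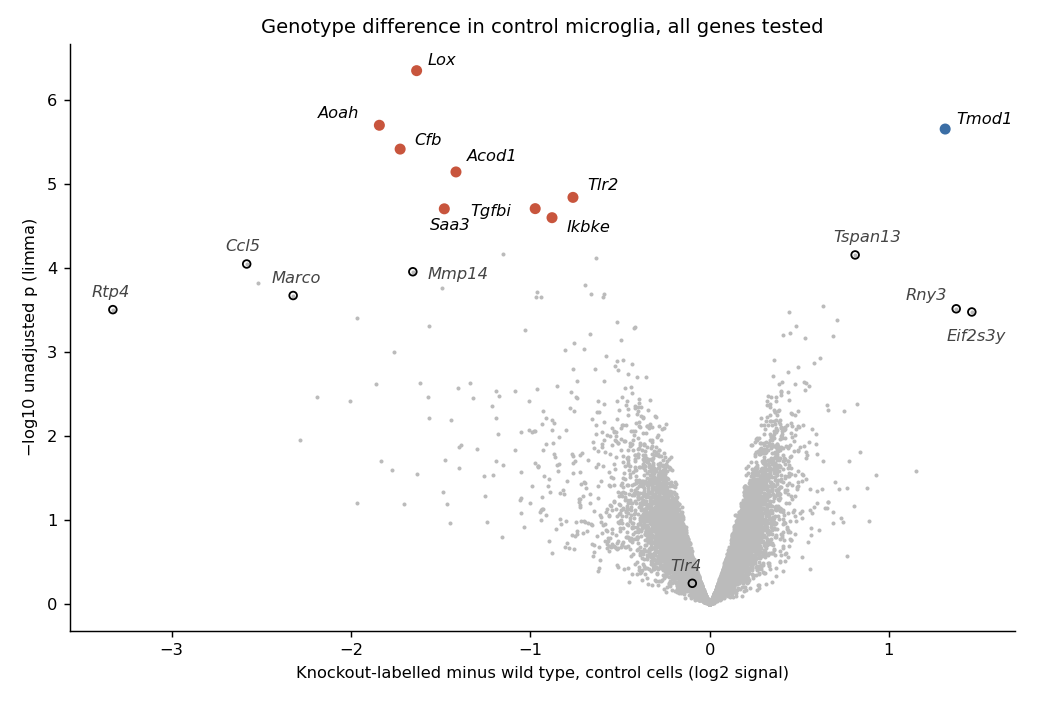
Each point is 1 of 15273 genes, with the difference in log2 signal between knockout-labelled and wild-type control cells on the horizontal axis and the -log10 unadjusted limma p on the vertical axis. Filled coloured points are the 9 called genes, 8 lower and 1 higher, and open circles are named genes that were not called. The lower side reaches -3.33 (Rtp4), the higher side 1.46 (Eif2s3y), and Tlr4 lies near 0.

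Tlr2 and Ikbke belong to the Toll-like receptor pathway itself. Tlr2, the receptor for bacterial lipopeptides, read 9.51, 9.29 and 9.22 in wild type and 8.49, 8.76 and 8.47 in knockout-labelled cells. The nearest arrays of the groups were 0.46 apart. The difference was -0.76 (SE 0.11), a 1.70-fold lower signal (limma adjusted p = 0.036). Ikbke encodes the kinase IKK-epsilon, which phosphorylates IRF3 and IRF7. Its signal was 9.63, 9.76 and 9.74 in wild type and 8.60, 9.13 and 8.77 in knockout-labelled cells. Again no arrays overlapped, and the difference was -0.88 (SE 0.14), or 1.84-fold lower (limma adjusted p = 0.042).

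Among 36 tested genes of the Toll-like receptor pathway these 2 were the only ones called, against 0.0589% of all genes. In 24 of the 36 the knockout-labelled mean was lower, with a median difference of -0.10 against 0.0030 over all genes. Without wild-type array 2 the median was -0.02. The groups did not overlap in 7 (19.4%), each lower, against 4.52% of all genes. Irak3, which dampens signalling by the receptor complex, differed by -0.50 (SE 0.11, limma adjusted p = 0.25) and Tlr8, an endosomal RNA sensor, by -0.87 (SE 0.27, adjusted p = 0.60). Neither passed, although the 3 arrays of each group did not overlap for either gene. Irak3 read 9.03, 8.84 and 8.83 against 8.44, 8.50 and 8.28, and Tlr8 read 10.03, 9.74 and 10.60 against 9.22, 9.47 and 9.08.

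Aoah fell most among the called genes. It encodes acyloxyacyl hydrolase, the enzyme that inactivates lipopolysaccharide by removing acyl chains. Wild-type arrays read 8.96, 9.41 and 9.55, and knockout-labelled arrays 7.70, 7.52 and 7.17. The groups were 1.26 apart at their nearest arrays. The difference was -1.84 (SE 0.22), 3.58-fold lower (limma adjusted p = 0.011).

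Cfb, Acod1 and Saa3 are genes that macrophages raise on activation. Cfb encodes complement factor B, the protease of the alternative pathway. Its signal was 9.07, 8.0 and 8.31 in wild type and 6.83, 6.55 and 6.82 in knockout-labelled cells. The wild-type arrays spread widely here, yet the lowest lay 1.17 above the highest knockout-labelled array. The difference was -1.73 (SE 0.22), 3.31-fold lower (limma adjusted p = 0.015).

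Acod1 makes itaconate, a metabolite with antibacterial and regulatory roles in macrophages. It read 8.11, 7.87 and 8.32 in wild type and 6.80, 6.86 and 6.40 in knockout-labelled cells. The groups were well apart, by -1.41 (SE 0.19), or 2.67-fold lower (limma adjusted p = 0.022). Saa3, an acute-phase apolipoprotein, read 9.98, 10.16 and 10.11 in wild type and 9.01, 8.16 and 8.65 in knockout-labelled cells. The knockout-labelled arrays varied more than the wild-type ones (SD 0.43 against 0.10, n = 3 each), and the difference was -1.48 (SE 0.22), 2.79-fold lower (limma adjusted p = 0.037). With each array centred on its median the Saa3 difference missed the threshold (adjusted p = 0.064).

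Lox and Tgfbi act on the extracellular matrix. Lox, lysyl oxidase, cross-links collagen and elastin, and it had the smallest p of all genes. Wild-type arrays read 8.77, 8.65 and 8.82 and knockout-labelled arrays 6.86, 7.45 and 7.03. The wild-type arrays were tightly grouped, and the difference was -1.63 (SE 0.17), 3.10-fold lower (limma adjusted p = 0.0068). Tgfbi, a secreted matrix protein that TGF-beta induces, read 9.44, 9.02 and 9.40 against 8.39, 8.42 and 8.14. The nearest arrays were 0.60 apart, with a difference of -0.97 (SE 0.15), 1.96-fold lower (limma adjusted p = 0.037).

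In the list of matrix enzymes and inhibitors the differences ran both ways. Of 19 members tested, Lox and Tgfbi were called, against 0.0589% of all genes. In the list 11 were lower and 8 higher, and the median difference was -0.03. The arrays did not overlap in 6 lower members (31.6%, against 4.52% of all genes) and 2 higher ones (10.5%, against 5.37%). Mmp14, a membrane-bound metalloprotease, read 9.79, 8.40 and 9.37 in wild type and 7.53, 7.59 and 7.48 in knockout-labelled cells. Its difference of -1.66 (SE 0.30) did not pass (limma adjusted p = 0.12), and the wild-type arrays covered more than 1 on the log2 scale. Mmp14 differed by -2.05 and passed when wild-type array 2 was left out (limma adjusted p = 0.0055). It did not pass without knockout-labelled array 3 (limma adjusted p = 0.40) and passed without both arrays (0.030). Mmp8, a collagenase best known from neutrophils, read 10.59, 9.43 and 10.27 against 9.04, 8.78 and 8.46, a difference of -1.34 (SE 0.35, adjusted p = 0.50). Mpo, another neutrophil marker, had a mean of 6.04 over the 12 arrays. The neutrophil markers Ngp, Ltf, Ly6g, Cxcr2 and Retnlg were below the limit for dim probe sets.

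Tmod1 was the one called gene with a higher signal in knockout-labelled cells. It encodes tropomodulin 1, which caps the slow-growing ends of actin filaments. Wild-type arrays read 7.28, 7.84 and 7.46 and knockout-labelled arrays 8.95, 8.66 and 8.92. The difference was 1.31 (SE 0.16), 2.49-fold higher (limma adjusted p = 0.011), with 0.82 between the nearest arrays. Tmod1 lies on chromosome 4, as does Tlr4.

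**Figure D2:**
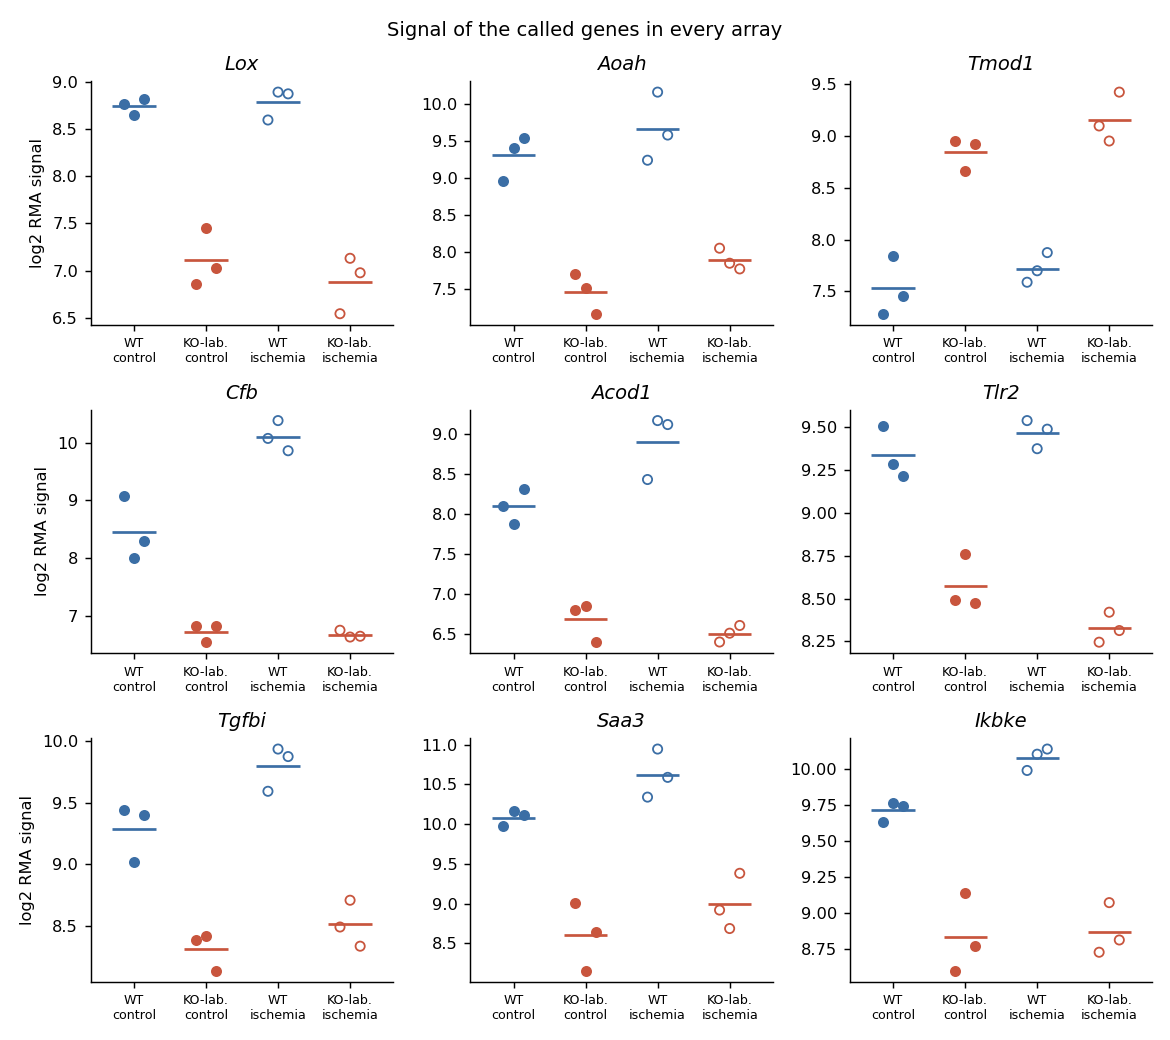
Log2 signal of each of the 9 called genes on every array, with 1 point per array and a bar at the mean of each group of 3; filled points are control cells, open points cells after ischemia and reperfusion, blue is wild type and red knockout-labelled. In none of the 9 do the control groups overlap, and the gap between their nearest arrays ranges from 0.46 (Tlr2) to 1.26 (Aoah).

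The 250 bases before the annotated start of 7 called genes were searched on both strands for 2 motifs, since NF-kB and interferon regulatory factors act at the end of the Toll-like receptor pathway. Lox and Cfb, the remaining called genes, were not searched. The motifs were the core of the interferon-stimulated response element, spelled as GAAA, any 2 bases and GAAA, and the NF-kB consensus. The sequences are those of RefSeq for the mouse build GRCm38.p6. The interferon motif occurs in 2 of the 7, Tgfbi and Saa3, and in 2.98% of all 32851 promoters of that length. The NF-kB consensus occurs in 1 of the 7, Tlr2, and in 3.90% of all promoters. The promoters of Aoah, Tmod1, Acod1 and Ikbke hold neither motif within these bases. The 3 promoters with a match follow, 5′ to 3′ on the gene's strand, so that the matches, in capitals, can be seen in place.

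Tlr2, chr3:83841609-83841858, minus strand: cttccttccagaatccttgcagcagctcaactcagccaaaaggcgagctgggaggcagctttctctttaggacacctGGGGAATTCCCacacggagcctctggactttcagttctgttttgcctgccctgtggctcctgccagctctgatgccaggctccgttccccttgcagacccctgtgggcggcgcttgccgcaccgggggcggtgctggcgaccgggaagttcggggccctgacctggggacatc
Tgfbi, chr13:56609336-56609585, plus strand: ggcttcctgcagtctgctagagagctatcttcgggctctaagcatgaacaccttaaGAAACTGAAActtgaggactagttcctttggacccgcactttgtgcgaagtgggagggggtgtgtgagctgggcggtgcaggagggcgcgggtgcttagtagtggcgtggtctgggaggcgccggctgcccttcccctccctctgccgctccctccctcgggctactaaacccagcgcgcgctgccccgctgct
Saa3, chr7:46715677-46715926, minus strand: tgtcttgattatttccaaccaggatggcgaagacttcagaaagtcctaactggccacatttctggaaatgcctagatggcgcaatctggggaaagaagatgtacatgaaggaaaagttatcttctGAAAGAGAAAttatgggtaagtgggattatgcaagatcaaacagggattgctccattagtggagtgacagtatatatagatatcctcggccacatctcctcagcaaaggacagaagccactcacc

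In Tlr2 the capitals are 2 overlapping NF-kB matches. A match is a description of these letters and says nothing about binding in these cells.

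Interferon-stimulated genes were lower in knockout-labelled cells as a group of values, but none passed the test gene by gene. Of 39 genes tested, limma called 0, with 24 lower at an unadjusted p under 0.05, against 3.65% of all genes. The knockout-labelled mean was lower in 37 of the 39, and the arrays did not overlap in 26 (66.7%, against 4.52% of all genes). The median difference was -0.93 against 0.0030 over all genes, and single genes ran from -3.33 to 0.13.

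The wild-type arrays disagreed with each other on these genes. The mean of the list was 7.55, 9.25 and 7.96 on wild-type arrays 1 to 3 and 7.16, 7.31 and 7.03 on the knockout-labelled arrays. Wild-type array 2 was the highest wild-type array in 39 of 39 genes. The median SD within the wild-type group was 0.77, against 0.22 in the knockout-labelled group and 0.13 in wild type over all genes. Without wild-type array 2 the median difference was -0.55, and without knockout-labelled array 3 as well it was -0.46, still with the knockout-labelled arrays on the lower side. Without wild-type array 1 it was -1.21.

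Rtp4, an interferon-induced chaperone of receptors, had the largest difference of all genes tested. It read 7.33, 10.93 and 8.75 in wild type and 5.56, 5.92 and 5.54 in knockout-labelled cells. The groups do not overlap, but the wild-type arrays cover more than 3 on the log2 scale, and the difference of -3.33 (SE 0.67) did not pass (limma adjusted p = 0.18). The Rtp4 difference was -2.37 without wild-type array 2 (limma adjusted p = 0.097). Oasl2, of the oligoadenylate synthetase family, read 8.30, 10.70 and 8.86 against 7.44, 7.60 and 7.24. That is a difference of -1.86 (SE 0.49, limma adjusted p = 0.50), with array 2 again the highest, and -1.15 without that array. Ddx58, the sensor of viral RNA known as RIG-I, differed by -1.41 (SE 0.38) and Parp14 by -0.96 (SE 0.26), each with a limma adjusted p of 0.52.

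Inflammatory cytokines and effectors held called members and had a median difference below that of all genes. Of 27 tested, Acod1 and Saa3 were called, against 0.0589% of all genes, and both were lower. The knockout-labelled mean was lower in 23 of the 27. The arrays did not overlap in 9 lower members (33.3%, against 4.52% of all genes) and 1 higher member (3.70%, against 5.37%). The median difference was -0.33. Here the list mean was highest on wild-type array 1: 7.72, 7.25 and 7.47 in wild type against 6.94, 6.88 and 6.88 in knockout-labelled cells. Array 2 was the highest wild-type array in 6 of the 27 genes, and without it the median difference was -0.28. Without wild-type array 1 the median was -0.19, the smallest of the 17 settings.

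Leaving out wild-type array 2 changed the call of both of the next genes, and leaving out knockout-labelled array 3 did not. In both genes wild-type array 2 was the wild-type array nearest the knockout-labelled ones. Marco, a scavenger receptor for bacteria, read 8.54, 8.03 and 10.15 in wild type and 6.06, 6.81 and 6.88 in knockout-labelled cells. Its difference of -2.32 (SE 0.45, limma adjusted p = 0.14) did not pass, with wild-type array 3 the highest. The Marco difference was -2.76 without wild-type array 2 (limma adjusted p = 0.031). Marco did not pass without knockout-labelled array 3 (limma adjusted p = 0.40) or without both arrays (0.072). Clec4e, the receptor Mincle for mycobacterial lipids, read 9.95, 8.13 and 9.76 against 7.69, 7.70 and 7.16. Its difference of -1.76 (SE 0.41, limma adjusted p = 0.33) became -2.34 without wild-type array 2 (adjusted p = 0.0080). Clec4e did not pass without knockout-labelled array 3 (limma adjusted p = 0.95) and passed without both arrays (0.038).

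The chemokine list was mixed. Of 17 tested, none was called by limma, with 3 lower and 1 higher at an unadjusted p under 0.05. Over all genes the shares at that p were 3.65% and 3.5%. Arrays did not overlap in 3 lower members (17.6%, against 4.52% of all genes) and 1 higher member (5.88%, against 5.37%), and the median difference was -0.14. The list mean was highest on wild-type array 2, at 7.66, 8.22 and 7.66 in wild type against 7.52, 7.56 and 7.46 in knockout-labelled cells. The median was -0.06 without that array and 0.02 without knockout-labelled array 3 as well. Ccl5, which attracts T cells and monocytes, read 8.87, 10.86 and 10.12 in wild type and 7.24, 7.71 and 7.15 in knockout-labelled cells. It was 5.99-fold lower (-2.58, SE 0.45) and did not pass (limma adjusted p = 0.10), and without wild-type array 2 it differed by -2.13 (adjusted p = 0.12). Cxcl2, a neutrophil attractant, read 7.65, 6.03 and 6.48 against 5.79, 5.61 and 5.24 (-1.18, SE 0.32, adjusted p = 0.54). Cxcl14 lay on the other side, at 0.41 (SE 0.13, adjusted p = 0.62).

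**Figure D3:**
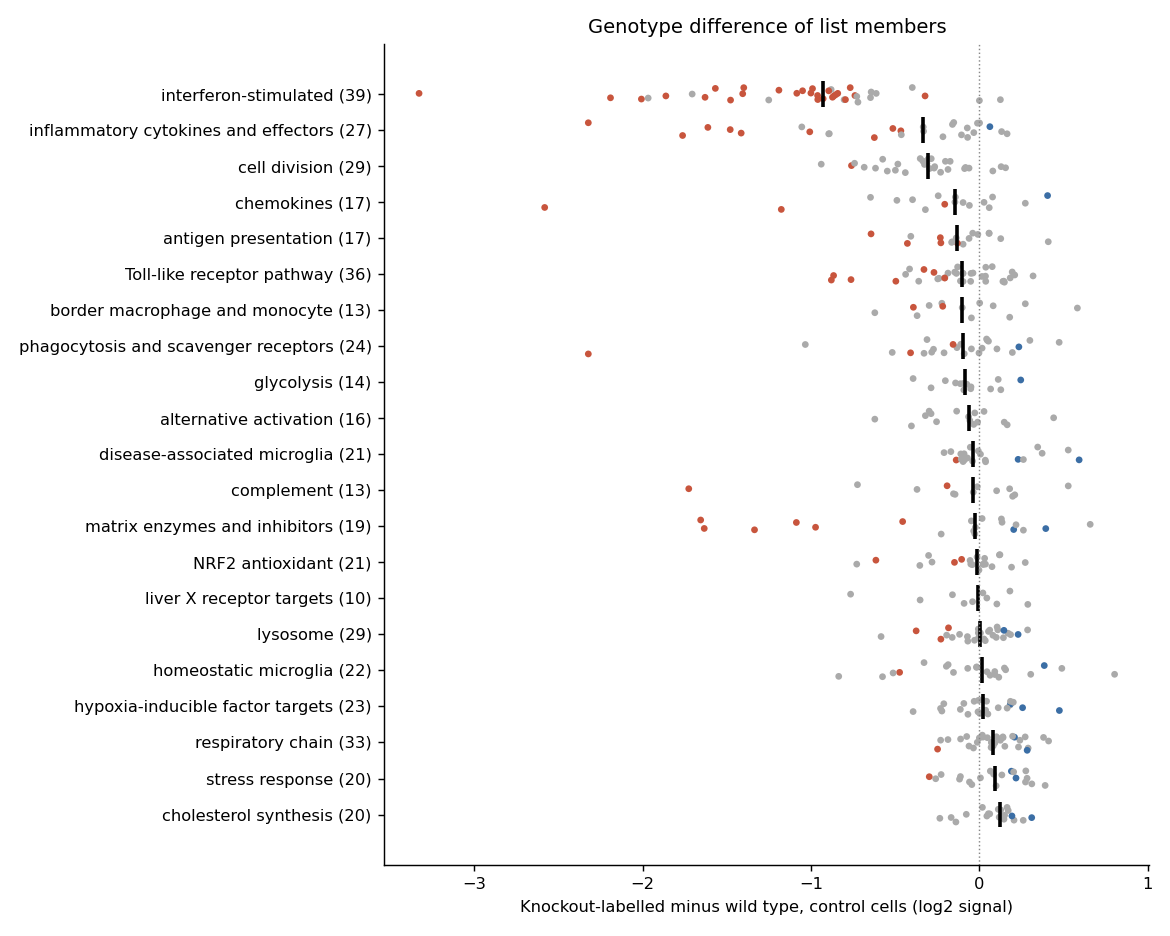
Difference in log2 signal between knockout-labelled and wild-type control cells for the members of each gene list, with 1 point per gene and a bar at the list's median. Points are red where all knockout-labelled arrays lie below all wild-type arrays, blue where they lie above, and grey where the arrays overlap. Interferon-stimulated genes have a median of -0.93 and inflammatory genes of -0.33, while the homeostatic microglia list has a median of 0.02.

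Antigen presentation and complement genes had medians closer to 0. Of 17 antigen presentation genes 13 had a lower knockout-labelled mean, and the median was -0.13. None was called by limma, with 3 lower at an unadjusted p under 0.05, against 3.65% of all genes. The arrays did not overlap in 5 lower members (29.4%, against 4.52% of all genes). The list mean was 8.57, 9.04 and 8.71 in wild type and 8.73, 8.69 and 8.55 in knockout-labelled cells, and without wild-type array 2 the median turned to 0.04. Cd80, a costimulator of T cells, differed by -0.64 (SE 0.22) and B2m, the light chain of class I molecules, by -0.43 (SE 0.15), each with a limma adjusted p of 0.63. In the complement list Cfb was the 1 called member of 13, against 0.0589% of all genes. The median of that list was -0.04, or 0.16 without wild-type array 2. Cfp, properdin, which stabilises the alternative pathway's protease, differed by -0.72 (SE 0.29, limma adjusted p = 0.67). Itgax, a complement receptor subunit, differed by 0.53 (SE 0.18, adjusted p = 0.62).

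The identity genes of microglia showed no call, but single members differed in both directions, from -0.83 to 0.80. In the homeostatic list limma called 0 of 22, against 0.0589% of all genes. At an unadjusted p under 0.05 there were 1 lower and 2 higher members, against 3.65% and 3.5% of all genes. As many members lay below as above, 11 each, with a median of 0.02. P2ry13, a receptor for ADP, read 8.38, 8.40 and 8.48 in wild type and 8.04, 8.16 and 7.64 in knockout-labelled cells, a difference of -0.47 (SE 0.13, limma adjusted p = 0.52). Trem2 and Tyrobp, a lipid receptor and its adaptor, lay on the higher side, at 0.49 (SE 0.19) and 0.39 (SE 0.14), with limma adjusted p-values of 0.66 and 0.65.

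Genes of disease-associated microglia had a median of -0.04 over 21 members (0.07 without wild-type array 2). Limma called none of them, and 2 were higher at an unadjusted p under 0.05, against 3.5% of all genes. Ank, a pyrophosphate transporter, differed by 0.59 (SE 0.19, limma adjusted p = 0.60). Markers of border macrophages and monocytes, which a microglia culture can also hold, had a median of -0.10 over 13 members. None was called by limma, with 2 lower at an unadjusted p under 0.05, against 3.65% of all genes. The mean of these 13 was 8.45, 8.80 and 8.35 in wild type and 8.48, 8.50 and 8.35 in knockout-labelled cells, so wild-type array 2 stood highest here too. The median was -0.04 without that array and 0.01 without knockout-labelled array 3. The part of these cells in the differences was not tested. Lyz2 differed by -0.22 (SE 0.08) and Fn1 by 0.58 (SE 0.29), with limma adjusted p-values of 0.64 and 0.71.

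Cell division genes had a median of -0.30, with the knockout-labelled mean lower in 26 of 29. Limma called 0, with 1 lower at an unadjusted p under 0.05, against 3.65% of all genes. That median came with wild-type array 2. The list mean was 7.04, 7.97 and 6.89 in wild type and 7.02, 7.13 and 6.76 in knockout-labelled cells, and array 2 was the highest wild-type array in 27 of the 29. Without it the median was 0.0055, and without knockout-labelled array 3 as well it was 0.14. Top2a, the topoisomerase of dividing cells, read 6.85, 8.95 and 6.76 against 6.88, 7.13 and 5.74, a difference of -0.94 (SE 0.53, limma adjusted p = 0.71) that became 0.20 without both arrays. Bub1b, of the spindle checkpoint, was the only member whose arrays did not overlap, at -0.76 (SE 0.19, adjusted p = 0.42).

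**Figure D4:**
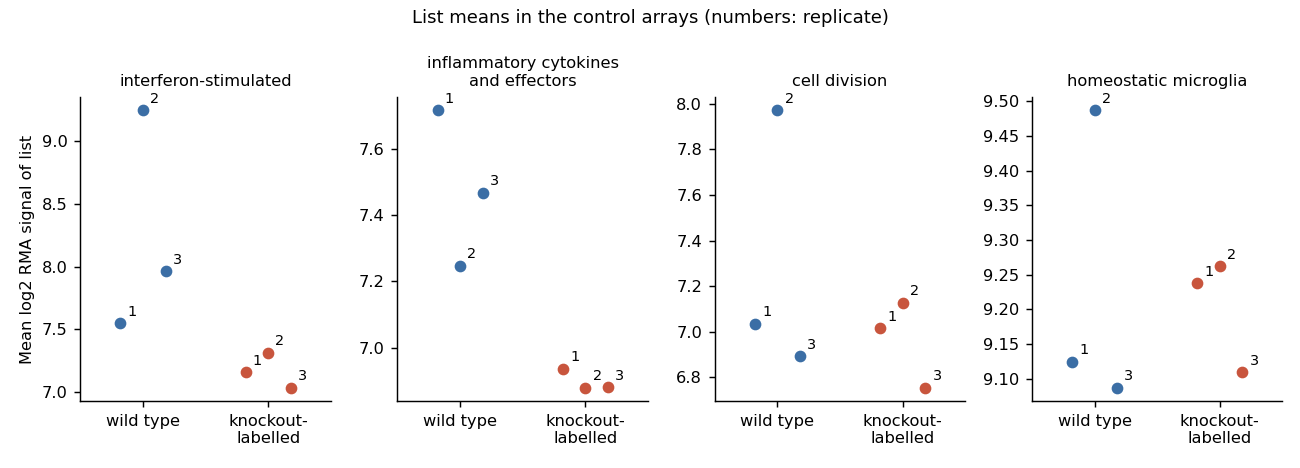
Mean log2 signal of a gene list on each control array, with 1 point per array for wild type and knockout-labelled cells. Wild-type array 2 stands at 9.25 for interferon-stimulated genes and at 7.97 for cell division genes, above the other wild-type arrays, whereas inflammatory genes are highest on wild-type array 1 at 7.72.

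Metabolic and stress programmes showed small medians and no call by limma, with 3 members or fewer in each list at an unadjusted p under 0.05. Among all genes 7.14% had such a p. The medians were 0.12 for cholesterol synthesis (20 genes, 16 of them higher), 0.08 for the respiratory chain (33 genes, 0.21 without wild-type array 2), 0.09 for the stress response (20 genes), 0.02 for targets of hypoxia-inducible factor (23 genes) and -0.08 for glycolysis (14 genes). Ndrg1, a gene induced by low oxygen, differed by 0.48 (SE 0.14), and Hk2, the first enzyme of glycolysis, by -0.39 (SE 0.14), with limma adjusted p-values of 0.59 and 0.63. Uqcrfs1 of respiratory complex III differed by 0.28 (SE 0.10, adjusted p = 0.62). Among 21 NRF2 antioxidant genes the median was -0.01, and Gsta3, a glutathione transferase, differed by -0.61 (SE 0.18, adjusted p = 0.57).

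Degradative and scavenging functions were likewise without a call by limma, again with 3 members or fewer in each list at an unadjusted p under 0.05. The share of all genes with such a p was 7.14%. Lysosomal genes had a median of 0.01 over 29 members, of which 3 were lower and 0 higher at that unadjusted p, against 3.65% and 3.5% of all genes. Ctsc differed by -0.37 (SE 0.13) and Ctsk by -0.58 (SE 0.21), both cathepsin proteases (limma adjusted p = 0.63 each). Phagocytosis and scavenger receptors had a median of -0.10 over 24 members, or -0.0088 without wild-type array 2. Of the 24, 2 were lower by at least 1, among them Marco at -2.32 (SE 0.45, limma adjusted p = 0.14), and 0 were higher by as much. Fcgr4, a receptor for immunoglobulin G, differed by -0.41 (SE 0.19, adjusted p = 0.70). Targets of the liver X receptor had a median of -0.01 over 10 members, with the cholesterol exporter Abca1 at -0.76 (SE 0.31, adjusted p = 0.67). The alternative activation list had a median of -0.06 over 16 members.

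Several of the 32 genes outside the lists that were lower by at least 1 are named here after their values were seen. Slc13a3, a carrier of dicarboxylates, read 8.39, 10.32 and 8.78 in wild type and 6.45, 6.98 and 6.50 in knockout-labelled cells, a difference of -2.52 (SE 0.47, limma adjusted p = 0.14). Pilrb1, an activating paired receptor of myeloid cells, read 7.79, 7.14 and 7.90 against 6.29, 6.67 and 6.42 (-1.15, SE 0.20, adjusted p = 0.095). Ly6e differed by -1.49 (SE 0.28, adjusted p = 0.14) and Ms4a6c by -1.56 (SE 0.33, adjusted p = 0.22). When wild-type array 2 was left out, Slc13a3 differed by -1.94 (limma adjusted p = 0.11), and Pilrb1 differed by -1.39 and passed (adjusted p = 0.0075). Pilrb1 did not pass without knockout-labelled array 3 (limma adjusted p = 0.39) and passed without both arrays (0.033). The arrays of the groups did not overlap in any of these 4, and wild-type array 2 was the highest in Slc13a3, Ly6e and Ms4a6c but the lowest wild-type array in Pilrb1.

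Large rises in knockout-labelled cells were few with all arrays in the fit. A rise of at least 1 was seen in 4 genes, but in 19 without wild-type array 2. It was seen in 28 when knockout-labelled array 3 was left out as well. The arrays did not overlap in 820 higher genes (5.37%), but 3 of these reached a difference of 1: Tmod1, Rny3 and Eif2s3y. Nes, the intermediate filament nestin, reached 1.15 (SE 0.45, limma adjusted p = 0.66) with overlapping arrays. Rny3, a small noncoding Y RNA, read 9.98, 9.81 and 9.92 in wild type and 10.96, 11.85 and 11.02 in knockout-labelled cells, a difference of 1.38 (SE 0.28, adjusted p = 0.18). Tspan13, a tetraspanin, read 8.91, 9.29 and 8.68 against 9.83, 9.62 and 9.87 (0.81, SE 0.14, adjusted p = 0.095). Without wild-type array 2 Tspan13 passed, at 0.98 (limma adjusted p = 0.0075), and so did Asb10, at 0.78 (adjusted p = 0.017). Neither passed without knockout-labelled array 3 (limma adjusted p = 0.39 and 0.51). Without both arrays Tspan13 passed (limma adjusted p = 0.033) and Asb10 did not (0.058). Smaller differences that did not pass were those of Asb10 (0.63), Tmem267 (0.71), Pacc1, a proton-activated chloride channel (0.48), and Clvs1 (0.44).

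None of the genes closest to Tlr4 was called, but with 0.0589% of all genes called this does not set them apart. Of the 50 genes on either side of it in the gene order of chromosome 4, 72 were tested, limma called 0 of them and 9 had an unadjusted p under 0.05 (12.5%, against 7.14% of all genes). The arrays did not overlap in 7 lower and 5 higher of the 72 neighbours, against 4.52% and 5.37% of all genes, and the median difference was -0.03. Tmod1 lies 125 genes before Tlr4 in that order. On the whole of chromosome 4 the arrays did not overlap in 48 lower and 71 higher of 967 genes (12.3%), which was the highest share among the autosomes, and 6.99% on chromosome 3 was the lowest. Over all genes it was 9.89%.

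Sex-linked genes varied within and between the groups. Xist, expressed from the inactive X chromosome of females, read 10.89, 10.29 and 11.05 in wild type and 10.40, 9.94 and 8.98 in knockout-labelled cells (-0.97, SE 0.31, limma adjusted p = 0.60). The Y-linked Eif2s3y read 5.44, 6.78 and 6.19 against 7.65, 7.50 and 7.64 (1.46, SE 0.30, adjusted p = 0.18), and passed without wild-type array 2, at 1.78 (adjusted p = 0.028). Eif2s3y did not pass without knockout-labelled array 3 (limma adjusted p = 0.59) or without both arrays (0.099). Kdm5d and Uty, also on the Y chromosome, differed by 0.84 (SE 0.30) and 0.75 (SE 0.43), with adjusted p-values of 0.63 and 0.71 by limma, and Kdm5d was higher in wild-type array 2 than in knockout-labelled array 3. All 6 arrays thus had a bright Xist signal, and the Y-linked signals were on average higher in knockout-labelled arrays. The part of the sex of the animals in the differences was not tested.

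The same genotypes were compared after ischemia and reperfusion on the other 6 arrays. There 109 genes were called (0.714%), 99 of them lower (0.648%) and 10 higher (0.0655%) in knockout-labelled cells. All 9 genes called in control cells were among the 109, each in the same direction and with no overlap between arrays (among all genes, 8.07% were lower without overlap), which is 100% of the control calls and 8.26% of the calls after ischemia. The arrays of both conditions are different samples, but they are not independent. Each gene has the same SE in both comparisons (0.17 for Lox), because its spread was estimated over the 12 arrays together. A small estimate therefore favours a call in both. Same-numbered arrays of a genotype deviated from their group means together, with correlations over genes of 0.48, 0.73 and 0.48 in wild type and 0.36, 0.32 and 0.49 in knockout-labelled cells.

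For 7 of the 9 genes the genotype differences of both conditions lay within 0.4 of each other on the log2 scale. The difference was -1.63 in control cells and -1.91 after ischemia for Lox, -1.84 and -1.77 for Aoah, 1.31 and 1.43 for Tmod1, and -1.48 and -1.63 for Saa3. Tgfbi stood at -0.97 and -1.29, Ikbke at -0.88 and -1.21, and Tlr2 at -0.76 and -1.14.

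Cfb and Acod1 had larger differences after ischemia. Cfb went from -1.73 in control cells to -3.42, which is 10.7-fold lower. After ischemia its wild-type arrays read 10.07, 10.38 and 9.86 and its knockout-labelled arrays 6.75, 6.64 and 6.65, so the wild-type arrays were higher than in control cells while the knockout-labelled arrays stayed in the same range. Acod1 went from -1.41 to -2.40. The change between conditions was 1.70 for Cfb (unadjusted p = 0.00013) and 0.99 for Acod1 (unadjusted p = 0.0032), and neither passed after adjustment over all genes. Limma called 0 genes for the difference between conditions, with 443 at an unadjusted p under 0.05 (2.9%) and a smallest adjusted p of 1.00.

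Genes that missed the threshold in control cells were in part called after ischemia. Ccl5 stood at -2.58 in control cells and -4.51 after ischemia (limma adjusted p = 0.000615 after ischemia), Rtp4 at -3.33 and -4.90 (adjusted p = 0.0057) and Mmp14 at -1.66 and -2.37 (adjusted p = 0.0027). The interferon-stimulated list had 20 of 39 genes called lower after ischemia, against 0.648% of all genes. Its median was -1.85 against -0.93 in control cells. Marco and Clec4e were not called in either condition, at -2.32 and -1.68 and at -1.76 and -1.90. Rny3 and Clvs1 stood at 0.48 and 0.01 after ischemia against 1.38 and 0.44 in control cells.

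**Figure D5:**
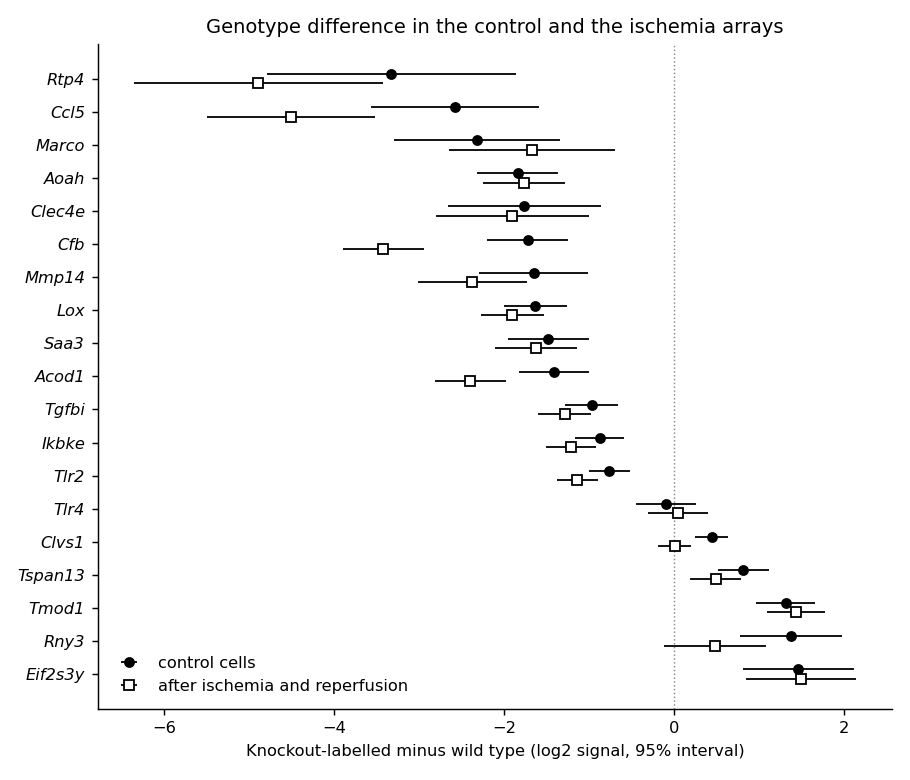
Genotype difference in log2 signal (knockout-labelled minus wild type) with its 95% interval for named genes, in control cells (filled circles) and after ischemia and reperfusion (open squares). Most genes lie on the same side of 0 in both, the intervals of Cfb, Acod1 and Clvs1 do not overlap between conditions, and those of Tlr4 include 0.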

How the data were processed

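Each of the 12 arrays holds 1 RNA sample of cultured microglia, with 3 arrays in each of 4 groups, and the 6 control arrays are described here. Signals were deposited on the log2 scale, 1 value for each probe set and array. Per the submitters' processing notes, the authors made them by RMA in Affymetrix Expression Console 1.1. RMA makes array distributions alike, so a difference in overall RNA content cannot be seen. Array medians ran from 6.30 to 6.40. Groups and replicate numbers came from the sample titles. No scanner files were used here.

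The platform annotation gives exactly 1 symbol to 21789 of the 35557 probe sets and several to 1621, and it does not list 12147. Symbols were updated through Entrez identifiers (21698 matched). The brightest probe set stood for each of 19938 genes, and 15273 genes above the 30th percentile of probe set means (5.36) were tested. limma 3.58.1 (R 4.3.3) estimated the 4 group means and a common spread from the 12 arrays together, and p-values were adjusted over these genes after Benjamini and Hochberg. The steps were tested on simulated data.

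The 30 gene lists (603 of 645 members had a probe set), the comparison and the alternatives were chosen with earlier results of these data known. Named genes are a selection from those a rule gave: called genes whose arrays do not overlap, up to 12 each way, filled to 8 by p with genes that did not pass, then Tlr4, up to 5 called members of a list filled to 4 by p, called neighbours of Tlr4, the 2 brightest markers of each other cell type, and the sex-linked genes. A few others are marked in the text as named after their values were seen. Same-numbered control arrays of both genotypes were not taken as pairs, since their deviations from the group means correlated at -0.33, 0.04 and 0.15, not all above 0.1. There were 17 alternatives, covering the arrays in the fit, blocks, the filter on dim genes, scaling, the choice of probe set, the prior spread, array weights and left-out arrays.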

Additional observations from a re-analysis of the deposited data

Results flagged for a closer look

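Probe sets that the annotation used here does not list were outside the comparison of named genes. When all 24890 probe sets above the dim limit were tested with limma, 7 were called, 4 of them with 1 symbol and 3 not listed. All 3 were lower in knockout-labelled control cells, with no overlap between the arrays, and they were taken up for that reason.

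Probe set 10452316 read 11.65, 11.44 and 12.00 in wild type and 9.65, 9.70 and 9.28 in knockout-labelled cells, a difference of -2.15 (SE 0.18), or 4.45-fold lower (limma adjusted p = 0.0022). Probe set 10606016 read 11.11, 11.26 and 11.21 in wild type against a mean of 10.06 over the 3 knockout-labelled arrays, a difference of -1.13 (SE 0.10), or 2.19-fold lower (limma adjusted p = 0.0022). Probe set 10448124 read 9.66, 9.69 and 9.86 against 7.04, 7.47 and 6.16, a difference of -2.85 (SE 0.30), or 7.19-fold lower (limma adjusted p = 0.0080). Each was lower in knockout-labelled cells after ischemia too: the means were 12.12 and 9.26, 11.63 and 10.33, and 9.97 and 6.28 in that order.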

How the results depend on the processing

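In control cells 8 genes were called lower and 1 higher. These counts became 0 and 0 with only the 6 control arrays, 28 and 3 with the replicate number as a block, 13 and 1 with genotype and number as a random block, 5 and 1 after quantile normalization, 325 and 333 with array weights, and 6 and 3 without wild-type array 2 and knockout-labelled array 3. Leaving out 1 array at a time gave 0 to 11 lower and 0 to 12 higher. The other settings gave 7 or 8 lower and 1 higher. Same-numbered control arrays of the 2 genotypes did not all deviate together, so the block is not a paired test of the genotypes. The 9 genes were all called again with the replicate block, with the random block and with array weights, and 4 of them were called without both arrays. The Tlr4 difference of -0.10 turned to 0.04 without knockout-labelled array 3, with a range of -0.25 to 0.04 when 1 array was left out, and to 0.11 without both arrays. The Top2a difference turned to 0.20 without both arrays and ran from -1.32 to -0.22 when 1 array was left out. The 109 calls after ischemia became 236 with the replicate block, 942 with array weights and 180 without both arrays, and ran from 78 to 158 when 1 control array was left out. The difference between conditions, with 0 calls, had 1 with array weights and 0 to 1 when 1 array was left out (1 without wild-type array 1 and 1 without knockout-labelled array 3). The cause of these changes was not tested, except that fewer arrays enter some fits.

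Over the settings, the 9 called genes passed again in 100 cases and missed the threshold in 53. The other named genes apart from Tlr4 kept their direction and side of the threshold in 1033 cases, newly passed in 67 and turned direction in 1 (Top2a). List medians moved by more than the spread between arrays in 31 of 510 cases. The number of arrays, 3 in a group, limits the precision of every value.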
